A study of Mus musculus with 20 samples.

Results

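The 9 genes described here mark the last segments of the nephron in front of the collecting system: 4 of the thick ascending limb (TAL), namely *Umod*, *Slc12a1*, *Kcnj1* and *Cldn16*, and 5 of the distal convoluted tubule (DCT), namely *Slc12a3*, *Pvalb*, *Trpm6*, *Calb1* and *Wnk4*. They were taken by symbol from the 43430 genes counted in each library, and all 9 were among the 16152 genes tested. RNA came from the kidney cortex of male C3H/HeJ mice, 10 weeks old at the start, which were wild type (WT) or Sweet Pee (SP), a line whose *Slc5a2* carries a missense change that disables SGLT2, the glucose carrier of the proximal tubule. Every mouse, controls included, was fed a high-fat diet for 8 weeks and then injected 3 times a week for 8 weeks, either with 10 mg/kg of MAT2Ai, a small-molecule inhibitor of the methionine adenosyltransferase MAT2A, or with DMSO as placebo. The 4 groups of 5 libraries were SP MAT2Ai, SP placebo, WT MAT2Ai and WT placebo. The SP allele is present in every cell, the inhibitor reaches the whole body, and no group without the diet is part of these data. The question of the design was whether the inhibitor moves kidney gene expression and whether the response differs between the genotypes.

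The TAL reabsorbs salt without water and so dilutes the urine and builds the medullary gradient, while its lumen-positive voltage drives calcium and magnesium between the cells. The DCT that follows reabsorbs a smaller, finely regulated share of the salt and sets the final excretion of magnesium. A kinase cascade of WNK kinases and their target kinase SPAK switches the salt carriers of both segments on by phosphorylation. The carriers of the TAL and the DCT are the targets of loop diuretics and thiazides.

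Gene counts ranged from 53296824 to 79339949 per library, and values are given as counts per 1000000 (CPM) after TMM scaling, which adjusts each library for its composition. Several libraries stood apart. *Slc5a2*, low where the SP allele is present in most libraries, lay between 43.5 and 85.9 CPM in SP MAT2Ai and between 229 and 518 CPM in the WT libraries, but the libraries labelled SP placebo 1 and SP placebo 2 held 241 and 282 CPM, against 40.2 to 70.1 CPM in the other 3 of that group, so these go against the level that their label leads to. For the 9 genes and for the genes that passed the threshold, results that rest on the SP placebo group are therefore also given without them. WT MAT2Ai 2 had a summed level of 10 tubular injury markers of 8061 CPM, against 445 to 956 CPM in the other 19 libraries, and *Slc14a2*, a urea carrier of the inner medulla, reached 15.7, 34.6 and 3.80 CPM in WT MAT2Ai 2, 3 and 4, against at most 2.29 CPM in every other library. Results on WT MAT2Ai for the same genes are also given without these 3 libraries. Nothing in the labels says that the libraries of a group came from separate animals, and the p-values measure the spread between the libraries.

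The sequences shown first come from the promoters, the stretches in front of the start of transcription. They are the 250 bases before the start site listed by RefSeq (GRCm38.p6, the same assembly as mm10), 5′ to 3′ on the strand of the gene, for 2 TAL genes and 3 DCT genes, shown because they hold, or for *Cldn16* lack, the motifs searched for. Windows were listed for 8 of the 9 genes. Capitals mark GTTAAT in the *Umod* window and GCCNNNGGC in the DCT windows, the palindrome bound by AP-2 factors. The *Cldn16* window held neither.

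Umod chr7:119479263-119479512 (- strand): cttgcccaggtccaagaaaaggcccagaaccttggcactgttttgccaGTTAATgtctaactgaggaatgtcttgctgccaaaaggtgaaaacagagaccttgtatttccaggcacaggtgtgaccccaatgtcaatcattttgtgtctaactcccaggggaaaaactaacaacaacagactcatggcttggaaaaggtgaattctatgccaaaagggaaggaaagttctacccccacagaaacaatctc
Cldn16 chr16:26462885-26463134 (+ strand): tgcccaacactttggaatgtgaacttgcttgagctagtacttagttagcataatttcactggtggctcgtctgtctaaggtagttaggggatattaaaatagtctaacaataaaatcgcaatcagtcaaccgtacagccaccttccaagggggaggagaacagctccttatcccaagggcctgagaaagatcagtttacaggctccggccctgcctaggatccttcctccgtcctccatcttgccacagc
Slc12a3 chr8:94328958-94329207 (+ strand): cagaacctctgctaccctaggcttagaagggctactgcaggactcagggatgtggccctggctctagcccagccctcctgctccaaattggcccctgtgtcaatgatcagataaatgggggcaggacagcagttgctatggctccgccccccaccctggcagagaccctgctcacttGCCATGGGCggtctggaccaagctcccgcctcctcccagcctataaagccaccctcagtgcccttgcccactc
Pvalb chr15:78206401-78206650 (- strand): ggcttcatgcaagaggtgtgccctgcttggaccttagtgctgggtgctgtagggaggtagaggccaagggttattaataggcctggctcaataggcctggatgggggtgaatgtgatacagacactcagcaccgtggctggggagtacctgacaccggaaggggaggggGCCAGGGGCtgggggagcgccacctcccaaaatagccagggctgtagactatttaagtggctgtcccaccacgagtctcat
Trpm6 chr19:18749480-18749729 (+ strand): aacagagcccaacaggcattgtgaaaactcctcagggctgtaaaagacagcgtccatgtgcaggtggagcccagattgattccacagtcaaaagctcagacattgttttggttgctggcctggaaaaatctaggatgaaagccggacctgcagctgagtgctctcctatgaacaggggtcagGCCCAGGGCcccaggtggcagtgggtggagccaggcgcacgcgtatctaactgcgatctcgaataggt

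Both strands of 32851 windows of the same length were searched for 11 motifs, and the 2 marked here were picked after the matches were seen. GCCNNNGGC occurred in every DCT window that was listed, those of *Slc12a3*, *Trpm6*, *Wnk4* and both starts of *Pvalb*, in none of the TAL windows, and in 13.7% of all windows. The base composition differed between the sets, however. The DCT windows had a GC content between 54.4% and 71.6%, against 39.6% to 48.0% in the TAL windows, and GCCNNNGGC is itself rich in G and C. GTTAAT occurred in the *Umod* window alone among the members and in 6.43% of all windows. TATAAA was found in the *Slc12a3* window, and in 12.4% of all windows, and the other motifs searched were found in no window of a member. They were AAGGTCA, TCAAGGTCA (which contains it), TGACGTCA, TTATGTAA and 4 longer ones, namely a longer palindrome that contains GTTAAT, an AP-2 form with a longer spacer, a steroid receptor palindrome and a spaced CCAG repeat. These were found in 4.08%, 0.387%, 1.55%, 0.819%, 0.00913%, 5.28%, 0.387% and 2.78% of all windows. A match is a run of letters, and no binding was measured.

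Per kilobase of the principal transcript, which makes genes of unequal length comparable, *Umod* was by far the most abundant of the 9 transcripts. Its mean over the 20 libraries was 610 CPM per kilobase. *Slc12a3* followed with 92.6, *Slc12a1* with 70.8, *Pvalb* with 67.5, *Kcnj1* with 49.6, *Calb1* with 32.5, *Wnk4* with 28.7, *Cldn16* with 7.87 and *Trpm6* with 1.20 CPM per kilobase. The place of *Slc12a3* depends on the length used, because its annotated exons sum to 11119 bases while its principal transcript has 3299. With summed exons its mean was 27.5 CPM per kilobase, below that of *Slc12a1* at 57.0. *Umod* and *Trpm6* were the highest and the lowest by either length.

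No TAL or DCT gene passed an adjusted p of 0.05 in any comparison. Adjusted p-values come from the edgeR quasi-likelihood test with Benjamini-Hochberg adjustment over the 16152 genes. MAT2Ai against placebo called 0 of 9 members in SP mice, where 0.0186% of all genes were called, and 0 of 9 in WT mice, where 0% were called. SP against WT called 0 of 9 under MAT2Ai, where 1.84% of all genes were called, and 0 of 9 under placebo, where 0% were called. With MAT2Ai averaged over genotype 0.223% of genes were called, with SP averaged over treatment 1.33%, and in the interaction of genotype and treatment 0%, with 0 of 9 members in each. DESeq2 and limma-voom called no member either. At these shares fewer than 1 call is the background for a set of 9 genes, so the counts do not set the members apart from other genes. The unadjusted p was under 0.05 for 1 member with MAT2Ai averaged over genotype, *Wnk4*, for 1 with SP averaged over treatment, *Umod*, and for 0 members in the other 5 comparisons. The share of all genes with such a p was 14.7% and 19.6% in these 2 averaged comparisons, and 3.75% to 21.8% in the other 5. At these shares 1 of 9 does not set the members apart either. In all genes the unadjusted p was under 0.05 for 2540 in WT MAT2Ai against WT placebo, for 606 in SP placebo against WT placebo and for 903 in the interaction, where no gene was called by edgeR, while DESeq2 called 201, 7 and 1 and limma-voom 2, 4 and 0 genes. The ranges of the 2 groups overlapped for 9 of 9 members in each of the 4 comparisons of groups. The share of all genes tested whose ranges overlapped was not counted, so overlap does not set a gene apart, here or below.

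**Figure D1:**
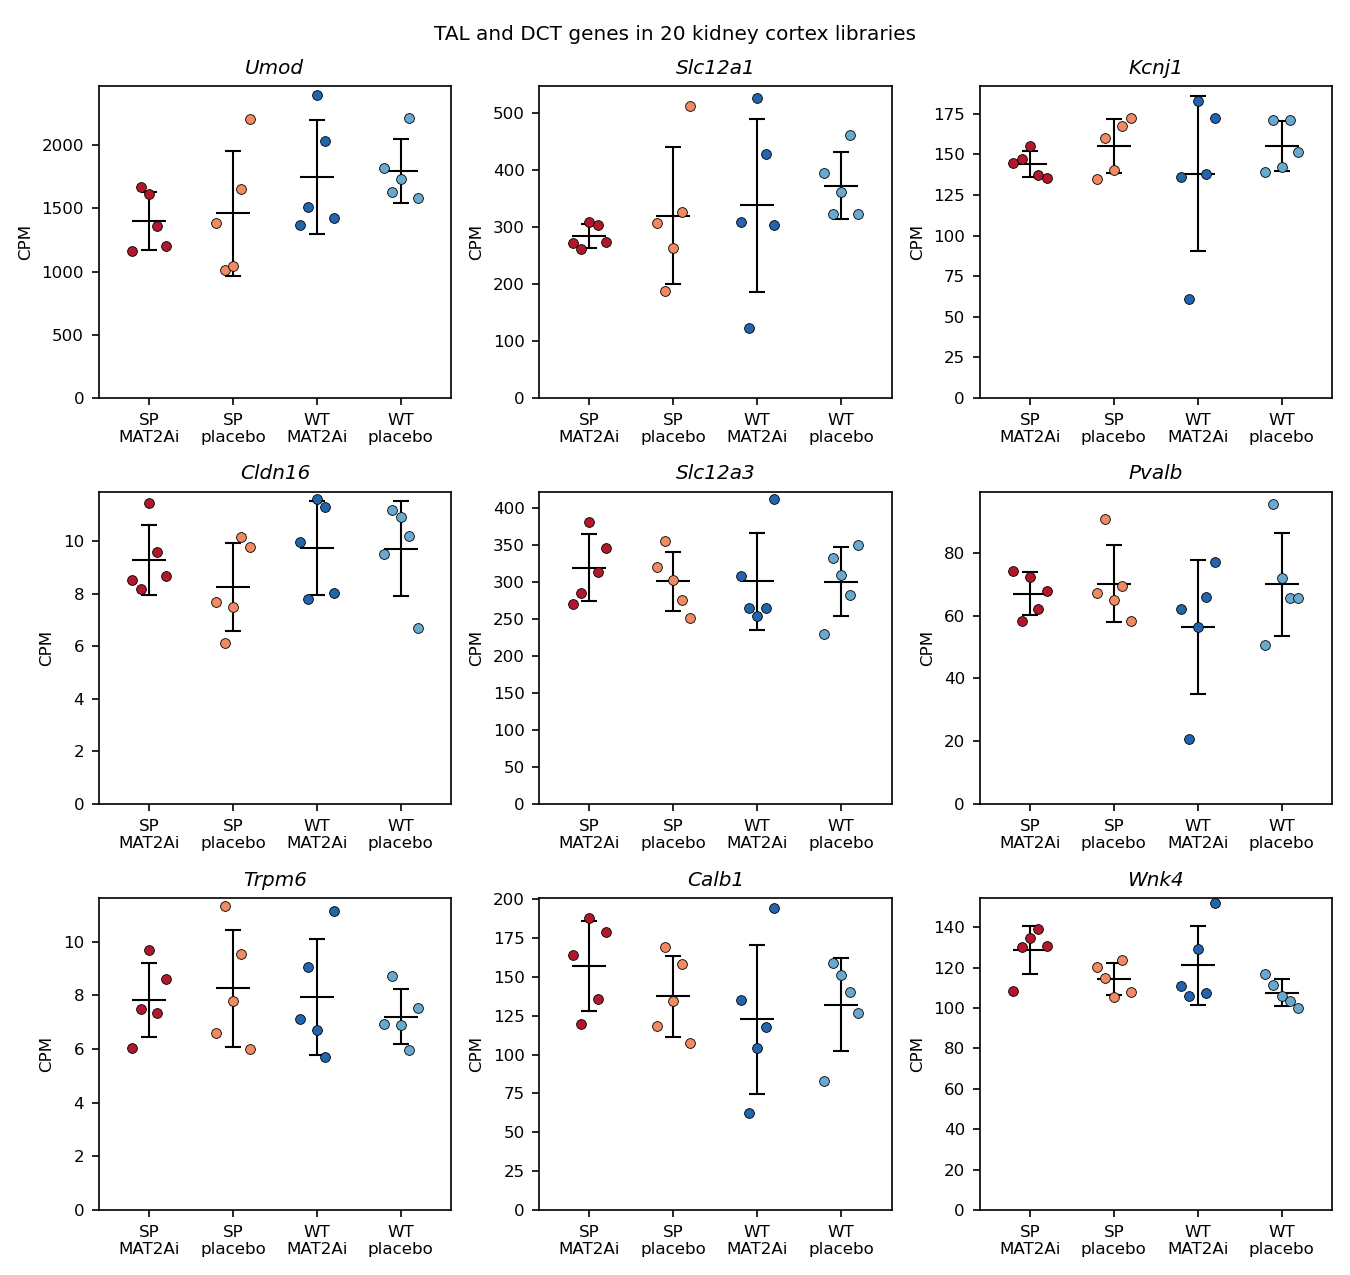
Levels of the 4 TAL genes (*Umod* to *Cldn16*) and the 5 DCT genes (*Slc12a3* to *Wnk4*) in CPM (vertical axis, from 0) in each of the 20 libraries, by group. Points are libraries in the order of their replicate number, lines are group means and error bars are SD (n = 5). The groups overlap in every panel, and WT MAT2Ai 2 is the low point at 123 CPM for *Slc12a1*, 61.0 CPM for *Kcnj1*, 20.9 CPM for *Pvalb* and 62.3 CPM for *Calb1*.

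*Umod* (chr7:119462711-119479282, minus strand, mm10) encodes uromodulin, the most abundant protein of normal urine, which the TAL secretes. It had 1159, 1669, 1611, 1361 and 1203 CPM in SP MAT2Ai, against 1382, 1014, 1044, 1654 and 2211 CPM in SP placebo. In the WT kidneys it had 1366, 1508, 2397, 2032 and 1421 CPM with MAT2Ai, against 1822, 1626, 1729, 2217 and 1582 CPM with placebo. The inhibitor groups and the placebo groups overlapped in both genotypes, with log2 fold changes of −0.06 ± 0.20 (SE) in SP and −0.04 ± 0.20 in WT. Between genotypes the means were 1401 ± 232 CPM in SP MAT2Ai and 1745 ± 451 CPM in WT MAT2Ai (SD, n = 5 each), and 1461 ± 495 CPM in SP placebo and 1795 ± 253 CPM in WT placebo. Averaged over treatment the log2 fold change of SP against WT was −0.31 ± 0.14, a level of 0.808 times that in WT with a 95% interval of 0.661 to 0.988, at an unadjusted p of 0.0388 and an adjusted p of 0.228 by edgeR. The difference was −0.23 (adjusted p = 0.414) without the libraries labelled SP placebo 1 and 2 and −0.15 (adjusted p = 0.656) without WT MAT2Ai 2, 3 and 4. Within WT, MAT2Ai against placebo was −0.37 without WT MAT2Ai 2, 3 and 4, and within SP it was −0.22 without SP placebo 1 and 2. SP against WT was 0.01 under MAT2Ai without the 3 WT libraries and −0.14 under placebo without the 2 SP libraries, and none of these passed. *Umod* lies 8.79 Mb from *Slc5a2* on the same chromosome. In bulk RNA, fewer cells of a type and less RNA per cell cannot be told apart, here and for all genes below. In the study's single-cell data, injured proximal tubule cells, found mainly in WT mice on the diet, also made *Umod* and *Slc12a1*. How much such cells add to these genes here was not tested.

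*Slc12a1* (chr2:125152505-125230002, plus strand) encodes NKCC2, the sodium, potassium and chloride carrier that loop diuretics block. It had 272, 261, 309, 304 and 273 CPM in SP MAT2Ai, against 308, 188, 263, 327 and 512 CPM in SP placebo. WT MAT2Ai libraries held 308, 123, 527, 429 and 303 CPM, against 396, 323, 361, 462 and 323 CPM in WT placebo. The lowest and the highest of the 20 values both belonged to WT MAT2Ai, replicates 2 and 3, and the spread of the groups was unequal, with a coefficient of variation of 7.57% in SP MAT2Ai, 37.6% in SP placebo, 44.9% in WT MAT2Ai and 15.6% in WT placebo. MAT2Ai against placebo gave log2 fold changes of −0.17 ± 0.27 in SP and −0.14 ± 0.27 in WT. SP against WT gave −0.25 ± 0.27 under MAT2Ai and −0.22 ± 0.27 under placebo. The 95% intervals reached from 0.568 to 1.34 times the level of the other group over these 4 comparisons. Each included no change, so the direction stayed undecided at this spread. Without SP placebo 1 and 2 the values were −0.36 for MAT2Ai against placebo in SP and −0.03 for SP against WT under placebo. Without WT MAT2Ai 2, 3 and 4 they were −0.29 for MAT2Ai against placebo in WT and −0.11 for SP against WT under MAT2Ai, and leaving out WT MAT2Ai 2 alone gave 0.07 and −0.46. None passed.

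*Kcnj1* (chr9:32372493-32399197, plus strand) encodes ROMK, the potassium channel that returns potassium to the lumen of the TAL so that NKCC2 can run, and it is also made further down the nephron. It had 145, 147, 155, 137 and 136 CPM in SP MAT2Ai, against 135, 159.9, 141, 168 and 173 CPM in SP placebo. In WT kidneys it had 136, 61.0, 183, 138 and 173 CPM with MAT2Ai, against 139, 171, 142, 171 and 152 CPM with placebo. Only WT MAT2Ai 2 left the range of 135 to 183 CPM. The log2 fold changes of MAT2Ai against placebo were −0.11 ± 0.18 in SP and −0.17 ± 0.18 in WT, and those of SP against WT were 0.06 ± 0.18 under MAT2Ai and 0.00 ± 0.18 under placebo. With WT MAT2Ai 2, 3 and 4 left out, the difference was −0.01 in WT and −0.10 for SP against WT under MAT2Ai. With SP placebo 1 and 2 left out, it was −0.15 in SP and 0.04 for SP against WT under placebo.

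*Cldn16* (chr16:26463135-26482765, plus strand) encodes claudin-16, a tight junction protein through which calcium and magnesium pass in the TAL. It had 8.5, 8.16, 11.4, 9.58 and 8.67 CPM in SP MAT2Ai, against 7.67, 6.14, 7.50, 10.2 and 9.76 CPM in SP placebo. WT libraries held 9.96, 7.78, 11.6, 11.3 and 8.04 CPM with MAT2Ai, against 9.52, 11.2, 10.9, 10.2 and 6.71 CPM with placebo. All 4 groups lay within 6.14 to 11.6 CPM. The largest of its 4 differences between groups was that of SP placebo against WT placebo, at −0.23 ± 0.16 on the log2 scale with an adjusted p of 1, and the difference of MAT2Ai against placebo was 0.17 ± 0.16 in SP and 0.00 ± 0.16 in WT. The first of these values was −0.09 and the second 0.03 without SP placebo 1 and 2. Without WT MAT2Ai 2, 3 and 4 the difference in WT was −0.11, and that of SP against WT under MAT2Ai was 0.04, against −0.07 with them.

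*Slc12a3* (chr8:94329201-94366214, plus strand) encodes NCC, the sodium and chloride carrier of the DCT that thiazides block. It had 270.3, 284, 381, 313 and 346 CPM in SP MAT2Ai, against 320.3, 355, 302, 276 and 251 CPM in SP placebo. In WT it had 308, 265, 254, 265 and 412 CPM with MAT2Ai, against 229.55, 332, 309, 282.5 and 349 CPM with placebo. The group means were within 1 SD of each other, at 319 ± 45.1 CPM in SP MAT2Ai, 301 ± 40.02 CPM in SP placebo, 301 ± 65.6 CPM in WT MAT2Ai and 300.4 ± 46.9 CPM in WT placebo (SD, n = 5 each). MAT2Ai against placebo changed the level by a factor of 1.06 (95% interval 0.868 to 1.29) in SP and 1.002 (0.821 to 1.22) in WT, and SP against WT by 1.06 (0.868 to 1.29) under MAT2Ai and 1.001 (0.8202 to 1.22) under placebo. Without WT MAT2Ai 2, 3 and 4 the log2 fold change in WT was 0.26, against 0.00 with them, and that of SP against WT under MAT2Ai was −0.18, against 0.08 with them. Without SP placebo 1 and 2 it was 0.21 in SP, against 0.08 with them, and −0.13 for SP against WT under placebo, against 0.00 with them. None passed the threshold.

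*Pvalb* (chr15:78191114-78206400, minus strand) encodes parvalbumin, a calcium-binding protein of the early DCT in the mouse. It had 74.4, 58.4, 72.4, 62.1 and 68.0 CPM in SP MAT2Ai, against 67.3, 90.9, 65.2, 69.4 and 58.5 CPM in SP placebo. WT libraries held 62.0, 20.9, 56.5, 66.0 and 77.0 CPM with MAT2Ai, against 50.6, 95.7, 72.1, 65.8 and 65.8 CPM with placebo. WT MAT2Ai 2 was again the low library. The log2 fold change of MAT2Ai against placebo was −0.31 ± 0.23 in WT (adjusted p = 0.518) and −0.07 ± 0.23 in SP (adjusted p = 0.995). The difference in WT was −0.10 without WT MAT2Ai 2 and −0.01 without WT MAT2Ai 2, 3 and 4. SP against WT was 0.25 ± 0.23 under MAT2Ai, and −0.05 without these 3 libraries. Leaving out SP placebo 1 and 2 gave 0.07 for MAT2Ai against placebo in SP and −0.13 for SP against WT under placebo, against 0.01 with them.

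*Calb1* (chr4:15881264-15908064, plus strand) encodes calbindin-D28k, which carries calcium through the cells of the late DCT and the connecting tubule. It had 164, 119, 188, 136 and 179 CPM in SP MAT2Ai, against 118, 169, 134, 158 and 107 CPM in SP placebo. WT libraries held 135, 62.3, 104, 118 and 194 CPM with MAT2Ai, against 83.1, 159, 151, 140.1 and 127 CPM with placebo. The lowest and the highest value were both found in WT MAT2Ai, in replicates 2 and 5. SP against WT under MAT2Ai gave the largest log2 fold change of any member in the 4 comparisons of groups, 0.36 ± 0.23 at an adjusted p of 0.361, but it was 0.19 without WT MAT2Ai 2 and −0.07 without WT MAT2Ai 2, 3 and 4. MAT2Ai against placebo was −0.11 ± 0.23 in WT, and 0.31 without those 3 libraries. In SP it was 0.19 ± 0.23, and 0.245 without SP placebo 1 and 2, where SP against WT under placebo was 0.01, against 0.06 with them.

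*Trpm6* (chr19:18749983-18892511, plus strand) encodes the magnesium channel of the apical membrane of the DCT. It had 6.05, 7.49, 9.70, 7.34 and 8.61 CPM in SP MAT2Ai, against 6.61, 11.3, 7.78, 9.54 and 6.01 CPM in SP placebo. WT libraries held 7.12, 9.05, 6.69, 5.72 and 11.1 CPM with MAT2Ai, against 6.94, 8.72, 6.90, 5.95 and 7.52 CPM with placebo. The groups covered nearly the same range, and the log2 fold changes lay between −0.07 ± 0.19 for SP MAT2Ai against SP placebo and 0.20 ± 0.19 for SP placebo against WT placebo. Those 2 values were 0.02 and 0.10 without SP placebo 1 and 2. MAT2Ai against placebo in WT was 0.14 ± 0.19, and 0.33 without WT MAT2Ai 2, 3 and 4, and SP against WT under MAT2Ai was −0.02 ± 0.19, and −0.22 without them.

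*Wnk4* (chr11:101260567-101277409, plus strand) encodes the kinase that heads the cascade on NCC and is mutated in a human form of salt-sensitive hypertension with high potassium. It had 109, 130.1, 135, 139 and 131 CPM in SP MAT2Ai, against 121, 115, 105, 124 and 108 CPM in SP placebo. In WT kidneys it had 111, 106, 129, 107 and 152 CPM with MAT2Ai, against 117, 111, 106, 103 and 99.9 CPM with placebo. In SP, 4 of the 5 MAT2Ai libraries lay above every placebo library, and in WT, replicates 3 and 5 did. The log2 fold change of MAT2Ai against placebo was 0.17 ± 0.09 in SP (adjusted p = 0.899) and 0.17 ± 0.09 in WT (adjusted p = 0.354). Averaged over genotype it was 0.17 ± 0.06, a factor of 1.12 (95% interval 1.03 to 1.23), at an unadjusted p of 0.0152 and an adjusted p of 0.257, so it failed the correction. The interaction was 0.00 ± 0.13. The difference in WT was 0.29 without WT MAT2Ai 2, 3 and 4, and that in SP 0.20 without SP placebo 1 and 2. SP against WT was 0.09 ± 0.09 under MAT2Ai, and −0.03 without the 3 WT libraries, and it was 0.09 ± 0.09 under placebo, and 0.06 without the 2 SP libraries. Over 27 alternative settings the averaged difference stayed between 0.12 and 0.23 and the adjusted p between 0.119 and 0.388. *Slc12a1*, *Trpm6* and *Wnk4* overlap the gene models *Gm14002*, *Gm24190* and *Gm11615*, and since the strand setting of the counting is not stated, reads in the shared stretches cannot be told apart.

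**Figure D2:**
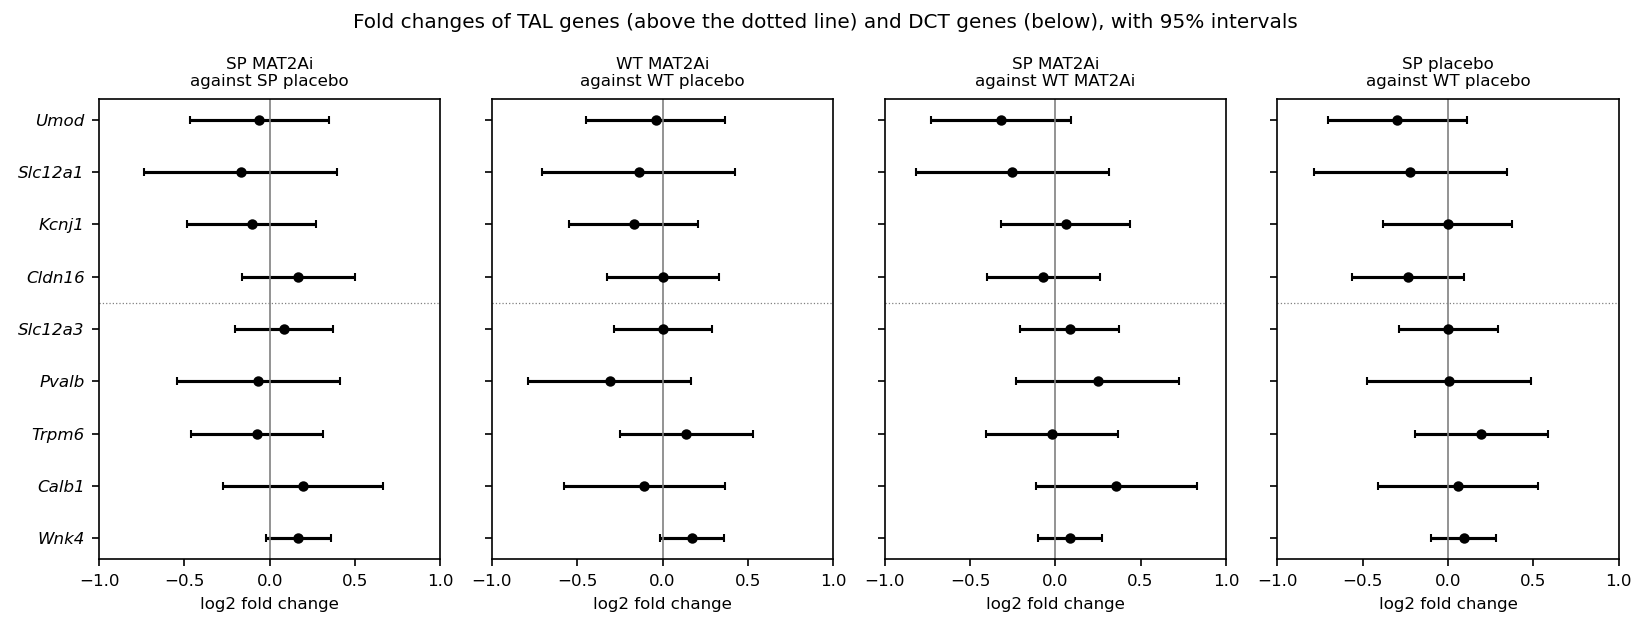
Log2 fold changes (horizontal axes) of the 9 genes (vertical axis) for MAT2Ai against placebo in each genotype and for SP against WT in each treatment. Points are edgeR estimates from all 20 libraries and bars are 95% intervals, every one of which includes 0. *Wnk4* has the narrowest intervals and *Slc12a1* the widest, as its SE of 0.27 against 0.09 shows.

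The TAL genes lay on the negative side of SP against WT under placebo in 4 of 4 cases, with a median log2 fold change of −0.23, and the DCT genes on the positive side in 5 of 5, with a median of 0.06, beside a median of 0.00 over all genes tested. Without SP placebo 1 and 2 these were 3 of 4 TAL genes with a median of −0.06 and 3 of 5 DCT genes with a median of 0.01. Under MAT2Ai it was 3 of 4 TAL genes, with a median of −0.16, and 4 of 5 DCT genes, with a median of 0.09, beside −0.02 over all genes. Without WT MAT2Ai 2, 3 and 4 the direction of the DCT genes turned, with 0 of 5 on the positive side and a median of −0.07, and 2 of 4 TAL genes were on the negative side, with a median of −0.05. For MAT2Ai against placebo the TAL medians were −0.08 in SP and −0.09 in WT and the DCT medians 0.08 in SP and 0.00 in WT, beside 0.00 in SP and 0.01 in WT over all genes. The medians in SP were −0.18 for TAL and 0.20 for DCT without SP placebo 1 and 2, and those in WT were −0.20 and 0.29 without WT MAT2Ai 2, 3 and 4. The 4 comparisons share groups with each other, so they are no repeats of one another, and no single gene passed.

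Some genes of a segment varied together between libraries, and most pairs from different segments did not pass. Over the 20 libraries, 36 pairs of genes were correlated on log2 CPM, with permutation p-values from 100000 permutations adjusted over the 36 pairs. Within the TAL set 4 of 6 pairs passed an adjusted p of 0.05, all positive, with a median Pearson r of 0.64, and within the DCT set 3 of 10, all positive, with a median of 0.43. Between the sets 2 of 20 passed, 1 positive and 1 negative, with a median of −0.03. Centred on the group means, which takes out differences between groups, the same counts were 4, 3 and 3.

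*Umod* and *Slc12a1* had the smallest adjusted p of the TAL pairs, with r = 0.70 (permutation p = 0.00028, adjusted p = 0.00504) and Spearman rho = 0.82 (p = 4e-05, adjusted p = 0.00072). It was r = 0.66 without the 2 libraries farthest from the median of *Umod* and 0.91 without WT MAT2Ai 2. *Umod* and *Cldn16* had r = 0.66 (permutation p = 0.00145, adjusted p = 0.0131) and rho = 0.66 (p = 0.00201, adjusted p = 0.0145), and r = 0.51 without the 2 farthest libraries. *Slc12a1* and *Cldn16* had r = 0.63 (permutation p = 0.00248, adjusted p = 0.0149) and rho = 0.72 (p = 0.00048, adjusted p = 0.00432), and 0.63 without the 2 farthest. *Slc12a1* and *Kcnj1* had r = 0.72 (permutation p = 0.00332, adjusted p = 0.0171) and rho = 0.43 (p = 0.0602, adjusted p = 0.158), but that relation rested on WT MAT2Ai 2, since it was 0.21 without the 2 farthest libraries and 0.37 (adjusted p = 0.212) without that library alone.

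Among the DCT genes *Pvalb* and *Calb1* were closest, with r = 0.85 and rho = 0.86 (permutation p = 1e-05 each, the smallest that the permutations can give, adjusted p = 0.00036 each), and r = 0.83 without the 2 libraries farthest from the median of *Pvalb*. *Slc12a3* and *Calb1* had r = 0.72 (permutation p = 0.00046, adjusted p = 0.00552) and rho = 0.74 (p = 0.00038, adjusted p = 0.00432), and 0.61 without the 2 farthest. *Slc12a3* and *Trpm6* had r = 0.65 (permutation p = 0.00195, adjusted p = 0.014) and rho = 0.63 (p = 0.00394, adjusted p = 0.0203), and 0.58 without the 2 farthest. *Wnk4* passed with no other gene, its highest r being 0.47 with *Trpm6* (permutation p = 0.0373, adjusted p = 0.096). Between the sets *Slc12a1* and *Trpm6* ran against each other, with r = −0.59 (permutation p = 0.00532, adjusted p = 0.0239), rho = −0.56 (p = 0.0115, adjusted p = 0.0515) and r = −0.63 without the 2 farthest libraries. *Kcnj1* and *Pvalb* had r = 0.83 (permutation p = 0.00815, adjusted p = 0.0326) but rho = 0.29 (p = 0.208, adjusted p = 0.326), and r = 0.24 (adjusted p = 0.459) without WT MAT2Ai 2, on which it rested.

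**Figure D3:**
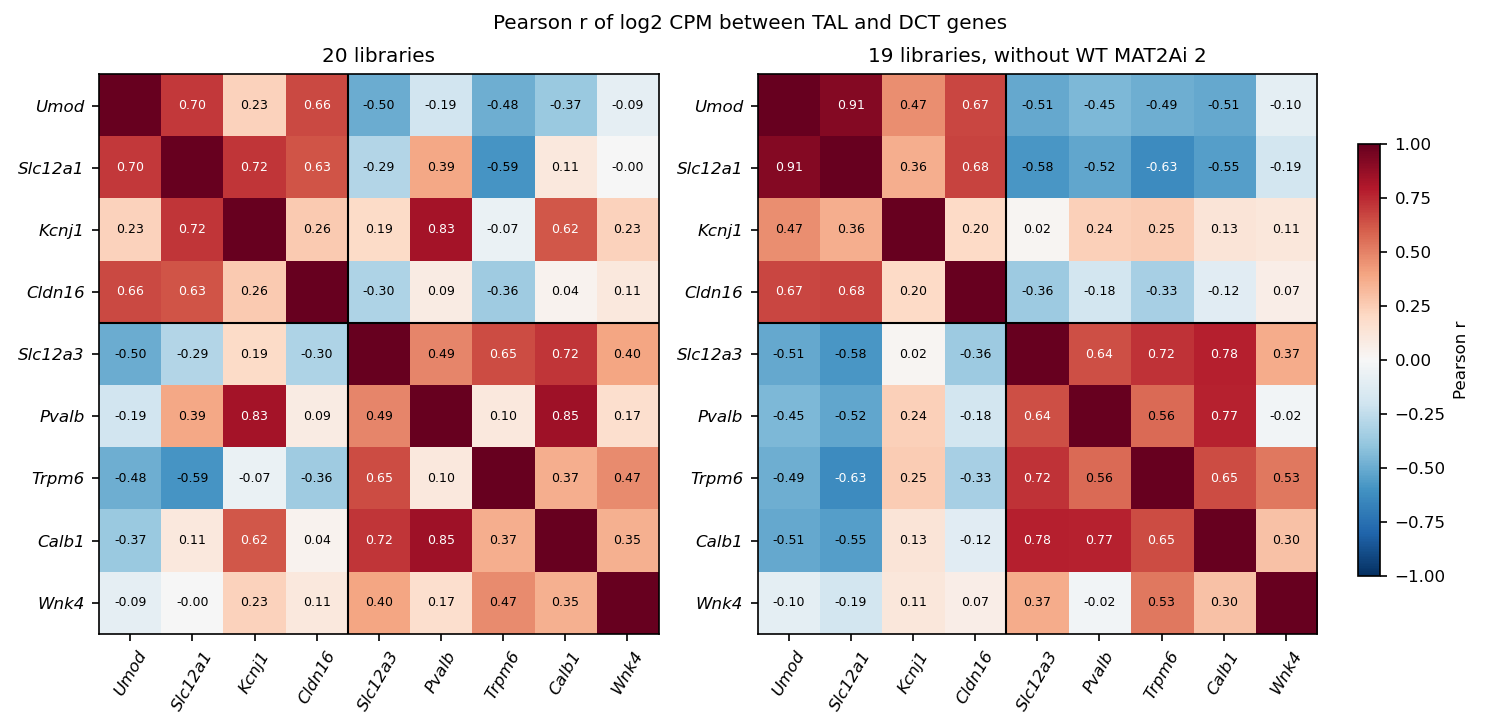
Pearson r of log2 CPM for each pair of the 9 genes over 20 libraries (left) and over 19 libraries without WT MAT2Ai 2 (right). Both axes list the genes, TAL before DCT with a black line between them, and red is positive and blue negative. Without that library the median r between the sets is −0.26, against −0.03 with it, and 6 of 10 DCT pairs pass, against 3 with it.

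Leaving out WT MAT2Ai 2 raised the median correlation within the DCT set and lowered the median within the TAL set. Then 3 of 6 TAL pairs, 6 of 10 DCT pairs and 3 of 20 pairs between the sets passed, and the median r was 0.57, 0.60 and −0.26. Some DCT pairs fell, with *Pvalb* and *Calb1* at r = 0.77, against 0.85 with that library. The lowest r of a DCT pair was −0.02, against 0.10 with it. The 3 that passed between the sets were *Slc12a1* with *Slc12a3* (r = −0.58, adjusted p = 0.0353), with *Calb1* (−0.55, adjusted p = 0.0421) and with *Trpm6* (−0.63, adjusted p = 0.0151). The mean profiles of the 4 TAL genes and of the 5 DCT genes had r = 0.01 over 20 libraries and −0.47 over the 19, given as a description. The TAL profile had r = 0.92 with that of 11 other TAL genes and 0.43 with that of 6 medulla markers, which was 0.78 without WT MAT2Ai 2. The medulla markers include *Aqp2* and *Fxyd4*, which also served as collecting duct markers. The DCT profile had r = 0.90 with that of 13 other DCT genes and −0.64 with the medulla markers, −0.59 without that library. With 10 tubular injury markers the DCT profile had r = −0.61, and −0.29 without that library, and the TAL profile had r = −0.29, and 0.58 without it. All these profiles come from the same libraries and share their depth. How much of the covariation follows the share of each segment or of medulla in the piece of kidney, or injury, was not tested.

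Single libraries with high or low levels did not all go the same way. WT MAT2Ai 3 had the highest TAL level, 0.51 above the mean over the 20 libraries on the log2 scale, and the highest medulla level, 2.31, while its DCT level was −0.16. SP placebo 5 had a TAL level of 0.39, a medulla level of 0.65 and a DCT level of −0.23. WT MAT2Ai 2 had the lowest TAL level, −0.72, and the lowest DCT level, −0.56, with a medulla level of 1.02. By summed CPM its TAL genes, at 1700 CPM, lay within the 1368 to 3118 CPM of the other libraries. Its DCT genes, at 464 CPM, lay below the 487 to 846 CPM of the others. The library labelled SP placebo 2 had the next lowest TAL level on the log2 scale, −0.45, with −0.997 for medulla and 0.33 for DCT. SP MAT2Ai 3 had a TAL level of 0.11 with a medulla level of −0.65 and a DCT level of 0.31. WT MAT2Ai 5 had the highest DCT level, 0.44, with a TAL level of −0.03 and a medulla level of −0.56.

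**Figure D4:**
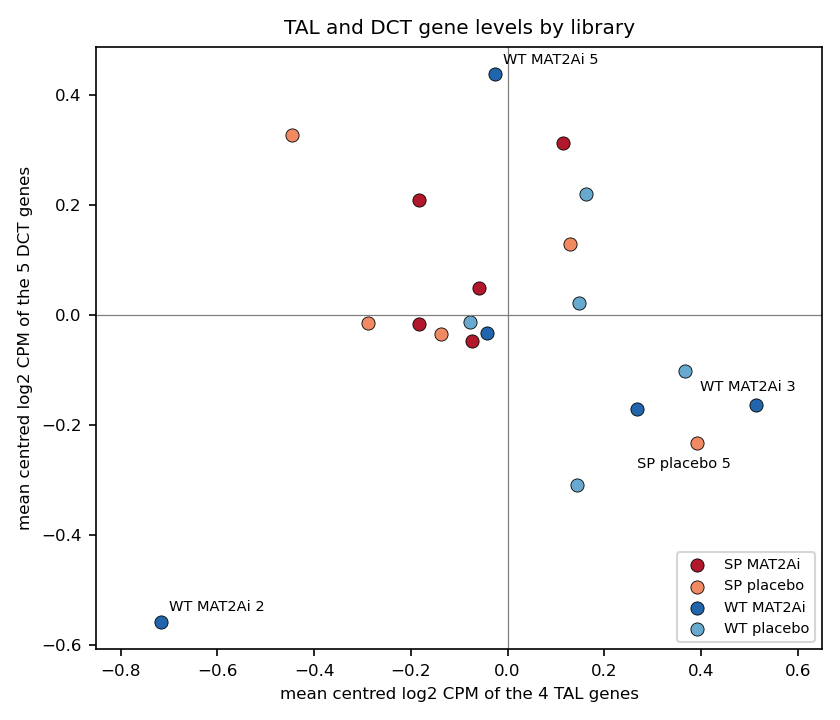
Mean log2 CPM, centred on each gene's mean over 20 libraries, of the 4 TAL genes (horizontal axis) and the 5 DCT genes (vertical axis). Each point is a library, coloured by group. WT MAT2Ai 2 lies alone at −0.72 and −0.56, and over the other 19 libraries r is −0.47.

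WT MAT2Ai 2 differed from every other library in the balance between genes of the same segment. It held the lowest *Slc12a1*, *Kcnj1*, *Pvalb* and *Calb1* of the 20 libraries, at 0.399, 0.414, 0.316 and 0.459 of the median of the other 19, while *Umod*, *Cldn16*, *Slc12a3*, *Trpm6* and *Wnk4* stayed inside their range, at 0.936, 0.812, 0.860, 1.23 and 0.923 of that median. Within that library *Umod* was 12.2 times *Slc12a1* in CPM, against 3.97 to 6.40 times in the others, and *Slc12a3* was 12.7 times *Pvalb*, against 3.47 to 5.35 times. These ratios are made inside a library and do not depend on its scaling. Outside the members, 10 of 13 other DCT genes and 5 of 11 other TAL genes had their lowest level of the 20 libraries there. Of the 13 other DCT genes, 2 had their highest level there. The share of all genes tested with their lowest level in this library was not counted, so such counts do not set a list apart. Other tubule markers were low there too, with 6 of 12 proximal tubule and 4 of 6 intercalated cell genes at their lowest, 10 of 10 injury markers were at their highest, and the summed proximal tubule level was 8740 CPM, against 11730 to 15550 CPM in the others. Podocyte and endothelial markers were low as well, with 3 of 5 and 3 of 6 genes at their lowest. Their summed levels were 97.1 CPM for podocytes, against 99.2 to 201 CPM in the others, and 85.3 CPM for endothelium, against 88.1 to 249 CPM. Lymphocyte and macrophage genes were not low, with 0 of 9 at their lowest and a sum of 70.8 CPM, against 29.0 to 99.0 CPM. Of the erythroid genes 0 of 5 were at their lowest, with a sum of 349 CPM, against 227 to 1013 CPM. This is 1 library of 5, and its part in the group's values is given by the fits without it.

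Of the TAL list beyond the members, which holds junction proteins, chloride channels and the calcium-sensing receptor, 0 of 11 genes passed in any comparison by edgeR. For SP MAT2Ai against WT MAT2Ai the smallest p-values belonged to *Cldn14*, a claudin that closes the calcium path, at −2.02 ± 0.84 on the log2 scale (unadjusted p = 0.0265, adjusted p = 0.172), to *Sorl1*, a sorting receptor, at −0.39 ± 0.18 (adjusted p = 0.22) and to *Casr*, the calcium-sensing receptor, at 0.41 ± 0.20 (adjusted p = 0.245). The median of the 11 was −0.34, beside −0.02 over all genes.

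Of 13 other DCT genes 1 rose in SP MAT2Ai against WT MAT2Ai, beside 1.84% of all genes, and 0 fell, with a median of 0.22 over the list. *Kcnj16*, a subunit of the basolateral potassium channel of the DCT that other tubule segments make too, had 863, 866, 803, 773 and 751 CPM in SP MAT2Ai, against 731, 577, 688, 657 and 689 CPM in WT MAT2Ai. The groups did not overlap. The difference was 0.28 ± 0.07 on the log2 scale or a factor of 1.21 (95% interval 1.10 to 1.34), at an adjusted p of 0.0422 by edgeR. Under placebo it had 736, 834, 816, 842 and 789 CPM in SP, against 770.2, 709.7, 707, 722 and 788 CPM in WT (0.12 ± 0.07, adjusted p = 1), and averaged over treatment it rose by 0.20 ± 0.05 (adjusted p = 0.0416). The next smallest p-values of the list in SP MAT2Ai against WT MAT2Ai were those of *Kl*, the FGF23 co-receptor klotho, at 0.40 ± 0.15 (adjusted p = 0.138) and of *Sall3*, a transcription factor, at 0.47 ± 0.23 (adjusted p = 0.241).

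In the list of 13 WNK and SPAK pathway genes, 1 fell in SP MAT2Ai against WT MAT2Ai and 0 rose, with a median of 0.03. *Sgk1*, a kinase induced by aldosterone, salt and stress that acts on distal sodium transport and is made in many cells, had 35.4, 38.5, 39.0, 32.9 and 41.5 CPM in SP MAT2Ai, against 59.7, 187, 92.3, 84.3 and 42.6 CPM in WT MAT2Ai. The groups did not overlap, though 41.5 CPM in SP MAT2Ai lay close to 42.6 CPM in WT MAT2Ai. The highest values were those of WT MAT2Ai 2, 3 and 4. It fell by 1.32 ± 0.30 on the log2 scale (adjusted p = 0.041 by edgeR), and the difference was −0.45 (adjusted p = 0.447) without these 3 libraries. Under placebo it had 43.3, 36.3, 37.6, 24.2 and 45.8 CPM in SP, against 30.6, 57.5, 79.6, 42.0 and 55.5 CPM in WT (−0.50 ± 0.30, adjusted p = 1), and averaged over treatment it fell by 0.91 ± 0.21 (adjusted p = 0.0408). *Cul3* and *Klhl2*, parts of the ubiquitin ligase that removes WNK kinases, followed in SP MAT2Ai against WT MAT2Ai, each at 0.16 ± 0.07 (adjusted p = 0.199 and 0.2). For *Cul3* and *Klhl2* no values without WT MAT2Ai 2, 3 and 4 are given.

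Of 3 macula densa genes, which mark the salt-sensing cells at the end of the TAL, *Ptgs2* fell in SP MAT2Ai against WT MAT2Ai. *Ptgs2*, the inducible cyclooxygenase, is also made in interstitial and injured cells. It had 0.406, 0.511, 0.900, 0.502 and 0.624 CPM in SP MAT2Ai, against 1.04, 2.94, 2.94, 1.94 and 0.504 CPM in WT MAT2Ai. The 3 highest values were again those of WT MAT2Ai 2, 3 and 4. It fell by 1.67 ± 0.40 on the log2 scale (adjusted p = 0.0429 by edgeR), and the difference was −0.40 (adjusted p = 0.711) without them. Under placebo it had 0.503, 0.487, 0.172, 0.262 and 0.501 CPM in SP, against 0.986, 0.714, 0.776, 0.482 and 1.0003 CPM in WT (−1.03 ± 0.41, unadjusted p = 0.0209, adjusted p = 1), and averaged over treatment it fell by 1.35 ± 0.29 (adjusted p = 0.0308). The macula densa markers *Nos1* and *Pappa2* passed in no comparison by edgeR.

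Beside these 3 calls stand those of other markers in SP MAT2Ai against WT MAT2Ai, where 4 of 10 injury markers and 2 of 6 medulla markers fell. The injury markers that fell were *Lcn2*, *Krt20*, *Sox9* and *Timp1*, with summed levels of the list of 487 to 695 CPM in SP MAT2Ai and 528 to 8061 CPM in WT MAT2Ai, and the medulla markers were *Slc14a2* and *Cryab*, with 289 to 452 CPM in SP MAT2Ai and 303 to 1041 CPM in WT MAT2Ai for that list. Much of the medulla sum is *Aqp2*, also a collecting duct marker, with a mean of 264 CPM in SP MAT2Ai and 354 CPM in WT MAT2Ai. The part of the injury and medulla markers in the 3 results was not tested. The difference of *Kcnj16* was 0.19 (adjusted p = 0.23) without WT MAT2Ai 2, 3 and 4. Each call was lost in some fits that leave out 1 library, in 10 of 20 for *Kcnj16*, 10 of 20 for *Sgk1* and 12 of 20 for *Ptgs2*. All 3 were lost without SP MAT2Ai 1, 2, 3 or 5, SP placebo 2 or 3, WT MAT2Ai 3, or WT placebo 4 or 5. *Kcnj16* was also lost without WT placebo 3, *Sgk1* without WT MAT2Ai 2, and *Ptgs2* without SP MAT2Ai 4, WT MAT2Ai 2 or WT placebo 3. Averaged over treatment the calls were lost in 12 of 20 for *Kcnj16*, 12 for *Sgk1* and 6 for *Ptgs2*, all 3 of them without SP MAT2Ai 2 or 5, SP placebo 3 or 4, or WT placebo 2 or 3. Without the libraries labelled SP placebo 1 and 2 together, the averaged call of *Ptgs2* was kept (adjusted p = 0.0351) and the other 5 calls were lost, with adjusted p-values of 0.0572 to 0.065. Without WT MAT2Ai 2, 3 and 4 all 3 averaged calls were lost by edgeR. The averaged differences were then 0.155 for *Kcnj16* (adjusted p = 0.077), −0.48 for *Sgk1* (adjusted p = 0.123) and −0.71 for *Ptgs2* (adjusted p = 0.15). For MAT2Ai against placebo no gene of these lists was called in either genotype.

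**Figure D5:**
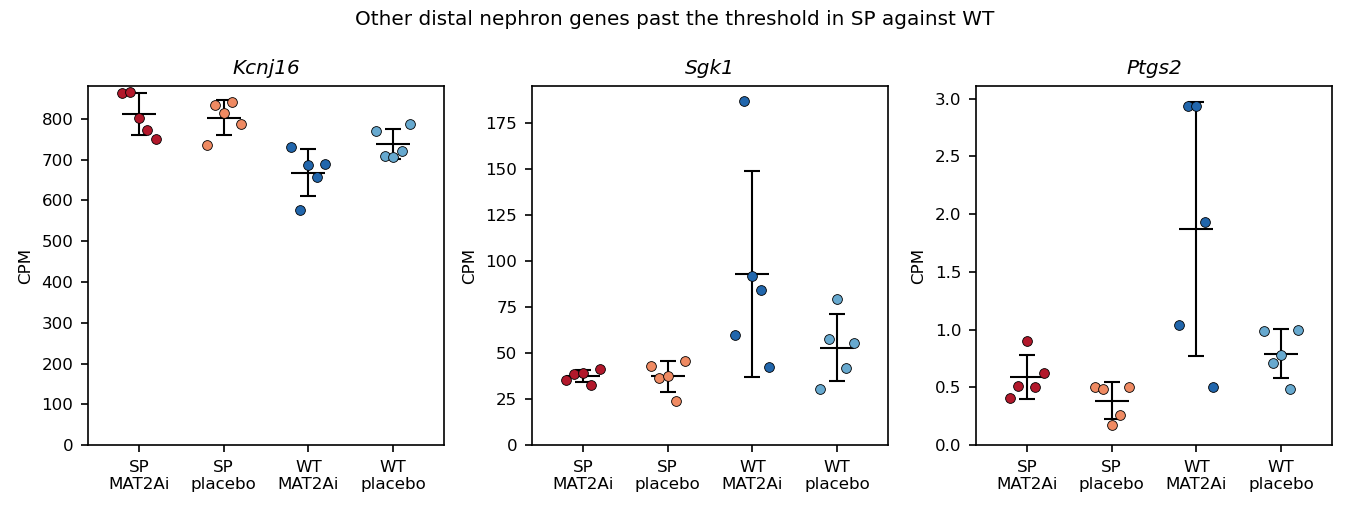
Levels of *Kcnj16*, *Sgk1* and *Ptgs2* in CPM (vertical axis, from 0) in each of the 20 libraries, by group. Points are libraries, lines are group means and error bars are SD (n = 5). SP MAT2Ai lies above WT MAT2Ai with no overlap for *Kcnj16* and below it with no overlap for *Sgk1*, and the high WT MAT2Ai points of *Ptgs2*, at 2.94, 2.94 and 1.94 CPM, are replicates 2, 3 and 4.

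The genes whose profile over the 20 libraries was most like the mean of the 4 TAL genes, among 11894 candidates, were *Nccrp1* (Pearson r = 0.91), *Ppp1r1a* (0.91), an inhibitor of protein phosphatase 1, *Mfsd4a* (0.91), *Wfdc15b* (0.89) and *Tmem207* (0.89). Without WT MAT2Ai 2 these stayed between 0.83 and 0.90. For the mean of the 5 DCT genes they were *Pgam2* (0.89), a phosphoglycerate mutase, *Cyb5rl* (0.87), *Tox3* (0.86), *Atp2b4* (0.82), a plasma membrane calcium pump, and *Sall3* (0.80), a transcription factor, and between 0.70 and 0.84 without that library. *Ppp1r1a*, *Tmem207*, *Atp2b4* and *Sall3* were also in the lists above. None of the 10 passed in any comparison by edgeR, the smallest adjusted p being 0.241 for *Sall3* in SP MAT2Ai against WT MAT2Ai.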

How the data were processed

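Poly(A) RNA libraries of 20 kidney cortex samples were sequenced. The labels' protocol speaks of nuclei from renal cortex, while the study's methods give RNA from kidney cortex. The authors removed adapters and low-quality bases, aligned reads to mm10 (STAR), counted them per gene with htseq on Ensembl release 78, and deposited these counts without normalization. The strand setting is not given in the sources used here. The 5 summary lines were left out, and reads outside genes were 3.87% to 5.49% and ambiguous reads 0.702% to 0.794% of the sum of both and the gene counts. Symbols and positions came from GENCODE M21 for 42546 of 43430 genes, and 884 had none.

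Groups came from the labels. Counts were filtered with filterByExpr and scaled by TMM, and 16152 genes were tested by the edgeR 4.0.16 quasi-likelihood test (R 4.3.3) fitted to the 20 libraries together with a coefficient for each group, for 7 comparisons, and Benjamini-Hochberg adjustment over all genes. The SE is the size of the log2 fold change over the square root of F. DESeq2 1.42.0, limma-voom 3.58.1 with sample weights, other scaling and filtering, a replicate block and fits without libraries were alternatives. Correlations used log2 CPM with a prior count of 2. The edgeR, DESeq2 and limma-voom fits and the correlations were tested on simulated data with known answers. Count depth, 53296824 to 79339949 per library, limits only the lowest genes, and the spread between libraries sets the precision. No 2 libraries of a group were alike within sampling noise (chi-square per degree of freedom at least 18.0).

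The members, lists, comparisons and tests were chosen with earlier results of these data known. Named were all 9 members, from each list described the called genes and up to 3 others by smallest p, and 5 genes most like each mean profile. The correlations without WT MAT2Ai 2 and those centred on group means were added after seeing the data. The other lists, of collecting duct, podocyte, endothelial, blood and immune markers, served to look for other cell types. Some genes of the lists are not reported here. In SP MAT2Ai against WT MAT2Ai the collecting duct, podocyte, endothelial and erythroid lists held no called gene, and *C1qb* of the immune list fell and *Slc22a6* of the proximal tubule list rose. With SP averaged over treatment these 2 were called as well, and *Hba-a2* of the erythroid list fell.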

Additional observations from a re-analysis of the deposited data

Results flagged for a closer look

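*Slc14a2*, the urea carrier of the inner medulla, had 2.295 CPM in SP placebo 5, far above the other 4 libraries of its group, which held 0.286, 0.0609, 0.672 and 0.379 CPM. Of 56 groups of 5 libraries looked at in this way, over the 9 members, *Kcnj16*, *Sgk1*, *Ptgs2*, *Slc5a2* and *Slc14a2*, this was the 1 with a library so far from the rest. Its gap to the nearest library was 0.7265 of the range of the group, just past the cut of 0.71. By chance about 1 group in 20 passes that cut, so 1 of 56 is not more than chance gives. In the same library *Umod*, at 2211 CPM, and *Slc12a1*, at 512 CPM, were the highest of SP placebo, and *Calb1*, at 107 CPM, *Slc12a3*, at 251 CPM, and *Pvalb*, at 58.5 CPM, the lowest. No member had such a library in any group.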

How the results depend on the processing

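No member was called in any of the 7 comparisons under any of the 27 alternatives. Of 1701 values of members' log2 fold changes under the alternatives, 135 had another sign than the reported value, none of them called in either fit, and 86 of these came from leaving out 1 library. The reported values that changed sign were at most 0.17 in size with 1 library left out, 0.08 without the libraries labelled SP placebo 1 and 2, and 0.36 without WT MAT2Ai 2, 3 and 4, where 20 of 63 changed sign. The moves by more than the spread between replicates were 6, all without WT MAT2Ai 2, 3 and 4, of *Slc12a3* and *Calb1*. SP averaged over treatment for *Umod* ranged from −0.41 to −0.15 (adjusted p 0.0709 to 0.656).

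The number of genes called over the whole genome, the background of the counts, did depend on the setting. For SP MAT2Ai against SP placebo it was 3, against 27 with DESeq2, 17 with limma-voom, 0 without the libraries labelled SP placebo 1 and 2, 17 without WT MAT2Ai 2, 3 and 4, and 0 to 13 with 1 library left out. For WT MAT2Ai against WT placebo it was 0, against 201 with DESeq2, 2 with limma-voom, 63 without WT MAT2Ai 2, 3 and 4, and 0 to 27 with 1 library left out. For SP placebo against WT placebo it was 0, against 7 with DESeq2, 4 with limma-voom, 1 without SP placebo 1 and 2, and 0 to 1 with 1 library left out. For SP MAT2Ai against WT MAT2Ai it was 298, against 1203 with DESeq2, 126 without SP placebo 1 and 2, 149 without WT MAT2Ai 2, 3 and 4, and 0 to 774 with 1 library left out, 0 without SP MAT2Ai 3 or 5. For MAT2Ai averaged over genotype it was 36, against 187 with DESeq2, 70 with limma-voom, 4 without SP placebo 1 and 2, 88 without WT MAT2Ai 2, 3 and 4, and 20 to 77 with 1 library left out. For SP averaged over treatment it was 215, against 885 with DESeq2, 1341 with limma-voom, 461 without WT MAT2Ai 2, 3 and 4, and 20 to 574 with 1 library left out. For the interaction it was 0, against 1 with DESeq2. The cause of these shifts was not tested.

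No label says that the replicate numbers pair the libraries, and the values below cannot exclude a pairing. Deviations from the group means of same-numbered libraries correlated at −0.0158 on average over 30 pairs, 4 of them over 0.1, and 6 of 20 libraries were closest to one of their own number. With the replicate block 88 genes were called for SP MAT2Ai against WT MAT2Ai and 114 for SP averaged over treatment, and *Kcnj16* had an adjusted p of 0.0737, *Sgk1* 0.064 and *Ptgs2* 0.0737 in SP MAT2Ai against WT MAT2Ai. Under the 27 alternatives *Kcnj16* kept its call in 12, *Sgk1* in 13 and *Ptgs2* in 11 there, with DESeq2 among them and limma-voom not. Averaged over treatment they kept it in 11, 12 and 19.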

Other observations

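The genes encoding the carrier and the channel of TAL salt uptake differed in how they followed the libraries. Over the 19 libraries without WT MAT2Ai 2, *Slc12a1* had r = 0.91 with *Umod* but 0.37 with *Kcnj1*, and the coefficient of variation over all 20 libraries was 30.1% for *Slc12a1* and 17.3% for *Kcnj1*. *Wnk4* had the lowest coefficient of variation of the 9 genes, 11.9%, and *Slc12a1* the highest.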
